A study of Mus musculus with 25 samples.

Results

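Tmem176a and Tmem176b are neighbouring mouse genes that encode small membrane proteins with 4 predicted membrane spans, distant relatives of the MS4A family. They are 2 of the 22439 genes counted in single myeloid cells of the injured spinal cord, and both were present in the count files. The pair was chosen by its levels across cell types, time points and clusters in these same libraries, so those levels are given as a description without a test. Tests are given for sort and sex, which played no part in the choice. The pair's transcripts made up 81040 UMIs (unique molecular identifiers, each standing for 1 captured transcript) in all.

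The libraries came from mice carrying Cx3cr1CreERT2, a tamoxifen-inducible Cre at the locus of the fractalkine receptor gene, which microglia and monocytes use. In 12 libraries from Cx3cr1CreERT2 mice every YFP+ cell was taken, and these are called mixed. In Cx3cr1CreERT2:R26tdTomato mice, which add a red reporter that Cre switches on, RFP+/YFP+ cells were taken as resident (5 libraries) and RFP-/YFP+ cells as infiltrating (7). One further library, at day 3 after injury, carries labels that contradict each other and was kept out of the comparisons below. Its cells were counted only in naming the cell types, in totals over all cells and in the correlation of genes across clusters. Sort and strain are therefore split the same way. Controls had a laminectomy, the opening of the bone over the cord, without the injury (Ctrl, 2 libraries, 1 mixed and 1 resident). After injury, 5 libraries were taken on day 1 (written D1), 4 on day 2 (D2), 7 on day 3 (D3), 5 on day 10 (D10) and 2 on day 21 (D21). Each library pooled 5 mm of cord from 1 to 3 mice, and nothing further says whether libraries of 1 group came from separate operations, so p-values measure the spread between these libraries. The age of the mice, the tamoxifen schedule and the kind of injury are not given in the sources used here. A name such as D3_mixed 3 gives a library's time point, sort and replicate number.

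Across the 25 libraries, cell numbers ran from 155 to 3800 and UMI totals from 486649 to 33204400, with a median of 1577 to 11233 UMIs per cell. The deposited cell type codes carry no names and were named here from markers. The first code, with 13289 cells, had 9 of 9 microglia markers at 20 or more CPM (counts scaled to the UMI total of the cells summed, per 1000000) and at least 2 times as high as in all other cells. By the same measure the second code (12841 cells) passed 5 of 8 markers of monocytes and 5 of 9 of macrophages, and the word macrophages stands for both. The third (2712 cells) passed 7 of 9 markers of dendritic cells and its cells are referred to as dendritic-like. The last, with 2116 cells, had 7 of 7 neutrophil markers and is called neutrophil-like. Of the 16-base cell barcodes, 127 occurred in more than 1 library.

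As background, TMEM176A and TMEM176B sit in the membranes of the cell's inner vesicles, where they are thought to act as cation channels. They are best known from dendritic cells and other antigen-presenting cells, where the pair is linked to an immature, tolerance-associated state, to antigen processing for MHC class II and, for TMEM176B, to restraint of the NLRP3 inflammasome. The MS4A proteins, their relatives, are membrane proteins of immune cells with the same number of predicted spans.

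Tmem176b lies on the minus strand at chr6:48833818-48841496 and Tmem176a on the plus strand at chr6:48840919-48847071 (GRCm38, GENCODE release M21). The gene models run head to head and overlap over 578 bases at their 5′ ends, of which 81 bases are exonic in both. Their 3′ ends, the part that a 3′ droplet assay reads, lie 13253 bases apart. The shared stretch is 5575 bases from the outermost 3′ end of Tmem176a and 7101 bases from that of Tmem176b. The one Tmem176a transcript that reaches into it, Tmem176a-206, ends much nearer, at position 48842330, where the stretch ends at 48841496. Whether the counting used strand is not given in the sources used here, so UMIs from the shared stretch could be credited to either gene, while no annotated 3′ end lies inside it. In the RefSeq promoter table of GRCm38.p6 the start of Tmem176a and the upstream start of Tmem176b are separated by 108 bases with a GC content of 63.9%.

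Between these starts 2 of 7 motifs searched on both strands were found, and the sites are shown because the starts of both genes flank them. The motif is in capitals, each site is read once along the strand of each gene, and both come from RefSeq, GRCm38.p6. The ETS core AGGAAGT lies 40 bases from the Tmem176a start at chr6:48841437-48841443, and the NF-kB motif (GGG and TTTCC with any 2 bases between) lies 23 bases from the Tmem176b start at chr6:48841397-48841406.
ETS core, Tmem176a strand: agctgcctgccAGGAAGTgttgaggtctgc
ETS core, Tmem176b strand: gcagacctcaacACTTCCTggcaggcagct
NF-kB site, Tmem176a strand: gctgcctgctGGAAAACCCCtaaaggggcc
NF-kB site, Tmem176b strand: ggcccctttaGGGGTTTTCCagcaggcagc

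The pair has 5 RefSeq promoter windows of 300 bases, each 250 bases before and 50 bases after a start, and the windows overlap one another. The ETS core was in 3 of them and in 9.36% of 32817 promoter windows of the same length. The NF-kB motif was in 2 of the 5 and in 1.63% of all windows. For each motif these windows hold the same site, at the position given above, so their counts are no measure of enrichment. No match in the 5 windows was found for the PU.1 form of the ETS core GAGGAAGT (3.20% of all windows), which contains that core, the AP-1 motif TGANTCA (7.81%), the interferon element core (GAAA and GAAA with any 2 bases between, 3.43%), the ROR core site AGGTCA (16.3%) or the E-box CACGTG (7.15%). A match describes these letters and is no evidence of binding.

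In microglia the pair stood high in the uninjured cord, low over the first 3 days and high again from D10. Levels are CPM over the summed UMIs of 1 cell type in 1 library, for sums of at least 20 cells. In the control libraries Tmem176a stood at 607 and 915 CPM and Tmem176b at 1167 and 1446 CPM in Ctrl_mixed 1 and Ctrl_resident 1. Summed, the pair was 2068 ± 415 CPM (SD, n = 2). Over D1 to D3 the pair ran from 181 to 637 CPM with a median of 339 (n = 11). At D10 and D21 it ran from 820.3 to 1644 CPM with a median of 1362 (n = 6). None of the 3 ranges overlapped, and the highest early library was D3_mixed 3.

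At D1 Tmem176a was 119.7, 85.5 and 97.0 CPM and Tmem176b 265, 163 and 133 CPM in D1_mixed 1, 2 and 3. At D2 the pair was 339 CPM in D2_mixed 1, 296 CPM in the 23 microglia of D2_mixed 2 and 579 CPM in D2_resident 1. At D3 it was 181, 430.5 and 637 CPM in the 3 mixed libraries and 401 and 273 CPM in the 2 resident ones. The D3 libraries were thus the most spread of the early ones. At D10 the pair was 1369.5 and 1169.5 CPM in the mixed, 1433 CPM in the resident and 820.3 CPM in 1 infiltrating library, which held 36 microglia. At D21 it was 1355 CPM in D21_mixed 1 and 1644 CPM in D21_infiltrating 1. No D10 or D21 library reached the 1774 CPM of the lower control.

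**Figure D1:**
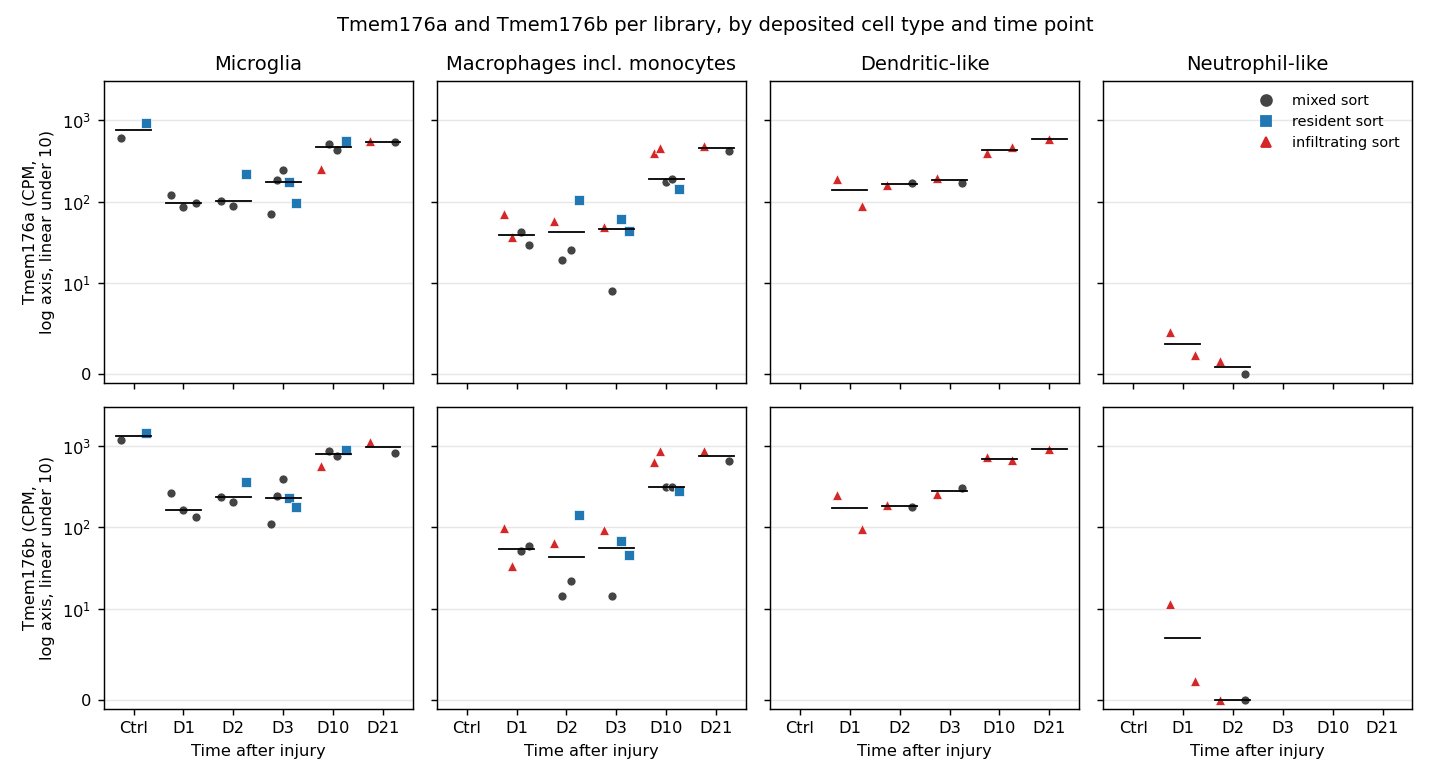
CPM of Tmem176a (upper row) and Tmem176b (lower row), on an axis that is logarithmic above 10 and linear below, by time point for the 4 cell types, 1 point per library sum of at least 20 cells, marked by sort, with a bar at each median. In microglia the sums of the pair at D1 to D3 lie between 181 and 637 CPM, below both controls and below all 6 sums at D10 and D21, and neutrophil-like sums lie near 0.

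The model of all genes, fitted over the 17 resident and mixed microglia sums, also put D1 and D3 below Ctrl on the log2 scale. Unlike the CPM levels, it put D10 near Ctrl. Against Ctrl, Tmem176a differed by -2.25 (SE 0.42) at D1, by -1.76 (SE 0.36) at D3 and by -0.04 (SE 0.41) at D10. Tmem176b differed by -2.14 (SE 0.40) at D1, by -1.94 (SE 0.34) at D3 and by -0.08 (SE 0.38) at D10. At D21, with 1 library, the differences were 0.44 for Tmem176a and 0.26 for Tmem176b. The 2 genes thus moved by nearly the same amount at each time. In the mixed libraries alone the D1 differences were -1.41 and -1.45, the D3 differences -0.84 and -1.19 and the D10 differences 0.62 and 0.48, with 1 control library behind them, which is female while the D1 mixed libraries are male. With the sequencing pool as a term the D3 differences shrank to -0.20 for Tmem176a and -0.50 for Tmem176b.

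Pools were shared in part between times. The pool with Ctrl_mixed 1 (1774 CPM) also held D10_mixed 1 and 2 (1369.5 and 1169.5 CPM). The pool with Ctrl_resident 1 (2361 CPM) also held D2_resident 1 (579 CPM) and D10_resident 1 (1433 CPM), so the order of control, D10 and early injury was also seen within 1 pool. The summed CPM of the 9 microglia markers was 26227 and 28941 in the controls, 4205 to 12433 at D1 to D3 and 6147 to 14554 at D10 and D21. The markers were thus lower early, as the pair was, but their late range overlapped the early one and lay below the controls. Macrophage markers in the same sums, Apoe, Cd68, Lgals3 and Gpnmb among them, were 2348 and 2497 CPM in the controls. They were 2580 to 26872 CPM at D1 to D3 and 46842 to 71268 CPM (median 58700) at D10 and D21. The early macrophage sums had a median of 21555 CPM, so this list does not separate late microglia from macrophages. Border macrophage markers were 2.14 and 7.01 CPM in the controls, 36.8 to 303 CPM early and 36.8 to 226 CPM late, and astrocyte markers 116 and 150 CPM, 8.12 to 50.9 CPM and 15.6 to 81.0 CPM. The part of these markers in the pair's levels was not tested. Under TMM scaling, which corrects for a few genes taking a large share of the UMIs, the control median was 1527 CPM in place of 2068, the early median 326 and the late median 1505, so the gap between controls and late libraries closed on that scale.

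The control libraries held no macrophages, and in the injured cord the macrophage level of the pair was low until D3 and high from D10. Over D1 to D3 the pair ran from 23.5 to 247 CPM with a median of 91.2 (n = 12). At D10 and D21 it ran from 421 to 1340.3 CPM with a median of 1026 (n = 7), and the ranges did not overlap. The lowest value belonged to D3_mixed 3, the library with the most macrophages (3019 cells), at 9.11 CPM of Tmem176a and 14.4 CPM of Tmem176b. The highest early value belonged to D2_resident 1, at 103 and 143 CPM.

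Among infiltrating libraries, the macrophage level of the pair was 170.4 and 69.9 CPM at D1, 122 CPM at D2, 141 CPM at D3, 1026 and 1311 CPM at D10 and 1340.3 CPM at D21. Among mixed libraries, it was 93.2 and 87.6 CPM at D1, 33.4 and 47.9 CPM at D2, 23.5 CPM at D3, 489.8 and 499 CPM at D10 and 1072 CPM at D21. In both sorts every late value lay above every early one. Resident libraries gave 247 CPM at D2, 129 and 89.1 CPM at D3 and 421 CPM at D10, in the few macrophages that this sort held.

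In the model over the 15 infiltrating and mixed macrophage sums, Tmem176a was 2.84 (SE 0.47) and Tmem176b 3.27 (SE 0.55) higher at D10 than at D1 on the log2 scale, and 3.40 (SE 0.52) and 3.78 (SE 0.61) higher at D21. The D2 differences from D1, -0.63 (SE 0.49) and -1.08 (SE 0.58), were small beside these. In the mixed libraries alone the D10 differences were 2.55 and 2.65. Summed microglia markers in the macrophage sums were higher late, from 304 to 1250 CPM (median 737) at D1 to D3 to 857 to 4038 CPM (median 2176) at D10 and D21. The summed macrophage markers ran from 14999 to 45601 CPM (median 21555) early and from 28274 to 137775 CPM (median 76965) late. The monocyte markers ran from 613 to 6149 CPM (median 3921) early and from 80.6 to 6025 CPM (median 1683) late. The border macrophage markers ran from 90.1 to 6009 CPM (median 807) early and from 25.3 to 56.7 CPM (median 47.2) late. The part of these markers' cells in the pair's level was not tested. Cells of cluster 3, which the authors' codes divide between microglia and macrophages, were 71 of the 78 macrophages of D21_mixed 1. They were 41 of 89 in D21_infiltrating 1, and 60 of 549 and 67 of 116 in D10_infiltrating 1 and 2. In D10_mixed 1 and 2 they were 21 of 53 and 30 of 68. Without them the D10 differences were 2.61 and 3.21, and no D21 difference without them is given. In sums over cells, more cells of a high type and more RNA per cell cannot be told apart.

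Dendritic-like cells, the cells in which the pair is best known, carried it at a higher level than macrophages early and at a like level late. Over D1 to D3 the pair ran from 185 to 475 CPM with a median of 396 (n = 6), and at D10 and D21 from 1122 to 1505 CPM with a median of 1128 (n = 3). Tmem176a was 191 and 88.7 CPM at D1, 160 and 169 CPM at D2, 195 and 171 CPM at D3, 394 and 467 CPM at D10 and 583 CPM at D21. Tmem176b was 252 and 96.5 CPM, 188 and 176 CPM, 254 and 305 CPM, 728 and 662 CPM, and 922 CPM in the same libraries. Both genes were thus lowest in D1_infiltrating 2 and highest in D21_infiltrating 1. Summed microglia markers in these sums were 236 to 899 CPM early and 798 to 1712 CPM late, and summed macrophage markers 1434 to 6723 CPM (median 4552) early and 1358 to 20220.2 CPM (median 9858) late. The part of either in the late level was not tested.

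Neutrophil-like cells had almost none of the pair. Their sums stood at 16, 4.22, 1.46 and 0 CPM, the last in D2_mixed 2, where 0 of 96190 UMIs allows up to 31.2 CPM. Over the 1219 cells outside the library with conflicting labels the pair was 5.37 CPM, at a median of 2100.0 UMIs per cell, and with that library's 897 cells it was 9.55 CPM. In the 4 libraries with both types the macrophages were higher in each.

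Within a library, where cells share capture and depth of sequencing, the order of the types can be read directly. Dendritic-like cells stood above macrophages in 8 of 9 libraries, with a median ratio of 2.65 (0.861 to 20.2). All 6 early libraries showed this order, while the ratio was 1.09 and 0.861 at D10 and 1.12 at D21. Microglia stood above macrophages in 13 of 14 libraries, with a median ratio of 2.93 (0.626 to 27.1), the exception being D10_infiltrating 2 with its 36 microglia. Dendritic-like cells and microglia had no fixed order, with ratios from 0.746 to 1.38 and the dendritic-like cells higher in 2 of 4. The order was thus neutrophil-like cells, macrophages, then dendritic-like cells and microglia together, and late macrophages lay within the range of late microglia and dendritic-like cells except for the 2 mixed libraries and the resident library of D10.

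The balance between the 2 genes had a similar median at each phase in microglia, with a spread between libraries. Tmem176a made up a median of 37.1% of the pair's UMIs there (29.9% to 43.1%, n = 19), with 37.2% at D1 to D3 and 36.7% at D10 and D21. In macrophages its share was 46.6% (33.3% to 57.1%, n = 12) at D1 to D3 and 35.9% (33.9% to 39.3%, n = 7) at D10 and D21. In dendritic-like cells the median was 44.7% (n = 6) early and 38.7% (n = 3) late. The late macrophage shares thus lay near the microglial median, and the early ones spread to either side of it.

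Counting error is small in the large sums. The share was 52.1% (exact 95% binomial interval 49.1% to 55.0%) in the macrophages of D1_infiltrating 2 and 53.8% (48.5% to 59.1%) in those of D2_mixed 2, but 34.5% (32.6% to 36.4%) in those of D3_infiltrating 1. In microglia it was 31.1% (28.9% to 33.3%) in D1_mixed 1 but 42.2% (39.1% to 45.4%) in D1_mixed 3, libraries of the same day and pool. Early sums of both types therefore differ by more than counting error, which is all that the intervals cover. Among macrophage clusters, pooled without the library of conflicting labels, the share was highest in cluster 11 at 52.2% (50.2% to 54.2%), followed by 43.8% (40.8% to 46.8%) in cluster 8. It was 35.6% in cluster 1 of the microglia and 37.1% in cluster 9 of the macrophages.

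**Figure D2:**
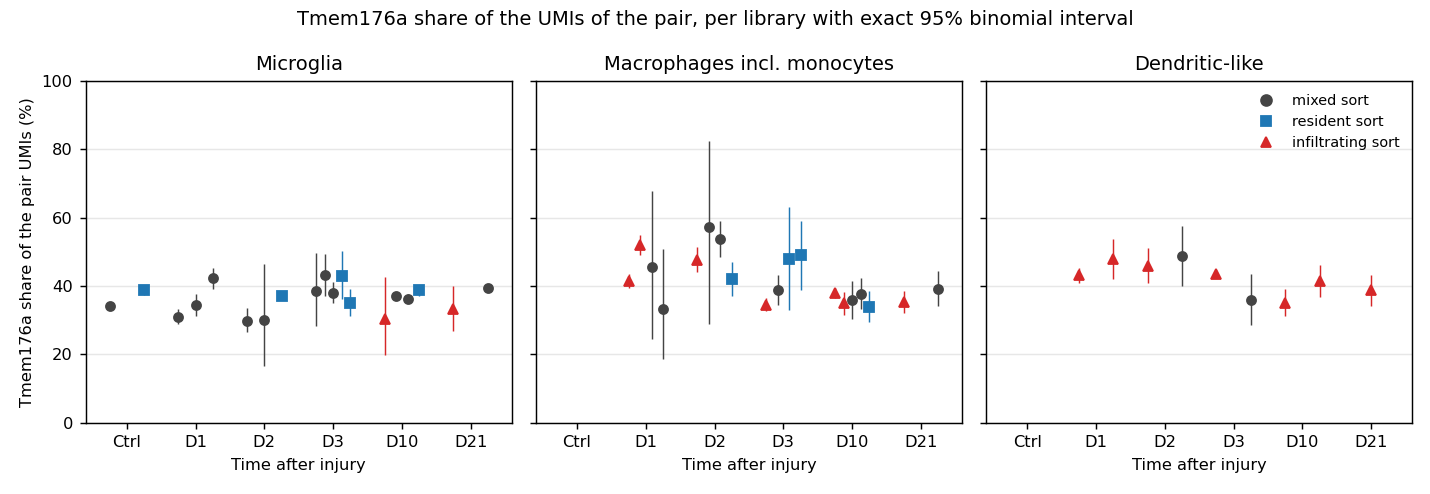
Share of Tmem176a in the summed UMIs of the pair (percent, vertical axis) by time point and cell type, 1 point per library sum, with exact 95% binomial intervals. Microglia lie between 29.9% and 43.1%, macrophages between 33.3% and 57.1% at D1 to D3 and between 33.9% and 39.3% from D10.

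The deposited clusters divide the cell types further, and the pair divided with them. Levels in this paragraph and the next are pooled over all libraries but the one with conflicting labels, whose times differ between clusters. Cluster 1 holds all 1887 control cells and no others, and had the highest pooled level at 1920.2 CPM. The macrophage part of cluster 3 (343 cells) stood at 1352 CPM, cluster 4 of the microglia at 1296 CPM and the microglial part of cluster 3 at 1178 CPM. These 3 do not keep this order at a matched time: at D10 the medians were 918 CPM (246 to 1567) in the macrophage part of cluster 3, 1503 CPM in cluster 4, 1384 CPM in the microglial part of cluster 3 and 1290 CPM in cluster 6. Lower microglial clusters in the pooled cells were cluster 7 at 584 CPM, cluster 6 at 439 CPM, cluster 5 at 349 CPM and the microglial part of cluster 2 at 284 CPM. Cluster 15, the dendritic-like cells, stood at 475 CPM.

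Macrophage clusters spanned a wide range. Cluster 13 stood at 475 CPM, cluster 12 at 275 CPM, cluster 9 at 239 CPM and cluster 10 at 137 CPM, against 71.8 CPM in cluster 11, 60.1 CPM in cluster 8 and 57.1 CPM in cluster 14. The pooled value of cluster 10 covers 165 cells, of which 107 came from D3_mixed 3 at 20.3 CPM, its one library with enough cells for a sum of its own, so its place in this order is uncertain. The pooled value of cluster 9 hides its libraries, because 2676 of its 3464 cells came from D3_mixed 3 at 20.8 CPM. Its other libraries gave 14.3 CPM at D1, 1283 CPM in D2_resident 1, 567 CPM in D3_infiltrating 1, 425 to 1942 CPM at D10 and 3212 CPM at D21. Clusters 11 and 12 are more even, at 24.6 to 118 CPM and 174 to 318 CPM over their library sums, so among early macrophages cluster 12 carried the higher level.

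Within clusters the pair also differed between time points, in sums from different libraries. In cluster 5 the pair ran from 238 to 385 CPM at D1, from 84.5 to 306 CPM at D3 and from 877 to 1021 CPM at D10, and was 909.8 CPM at D21. In cluster 6 it went from 316 to 407 CPM at D2 and 104 to 481 CPM at D3 to 1268 to 1302 CPM at D10. The microglial part of cluster 2 went from 159 to 244 CPM at D1 to 478 to 626 CPM at D10. Cluster 4 stood at 999 CPM at D2 and 1106 CPM at D3, in 1 library each, and at 1212 to 1523 CPM at D10 and 1553 CPM at D21. The microglial part of cluster 3 was also high early, at 696 CPM in the 20 cells of D1_mixed 3 and at 810.01 and 820.2 CPM at D2. It ran from 331 to 1149 CPM at D3 and from 1172 to 1533 CPM at D10. At D21 it was 1448 CPM in D21_mixed 1 and 3145 CPM in the 23 cells of D21_infiltrating 1, where the macrophage part of cluster 3 was at 2952 CPM, both above the control sums of 1774 and 2361 CPM. In D3_mixed 3 it was at 1149 CPM, beside the 1106 CPM of cluster 4. At D10 the sums of clusters 4, 5 and 6 and of the microglial part of cluster 3 lay within the late microglial range of 820.3 to 1644 CPM. Those of the microglial part of cluster 2 lay below it. The part of cluster make-up in the late level was not tested.

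**Figure D3:**
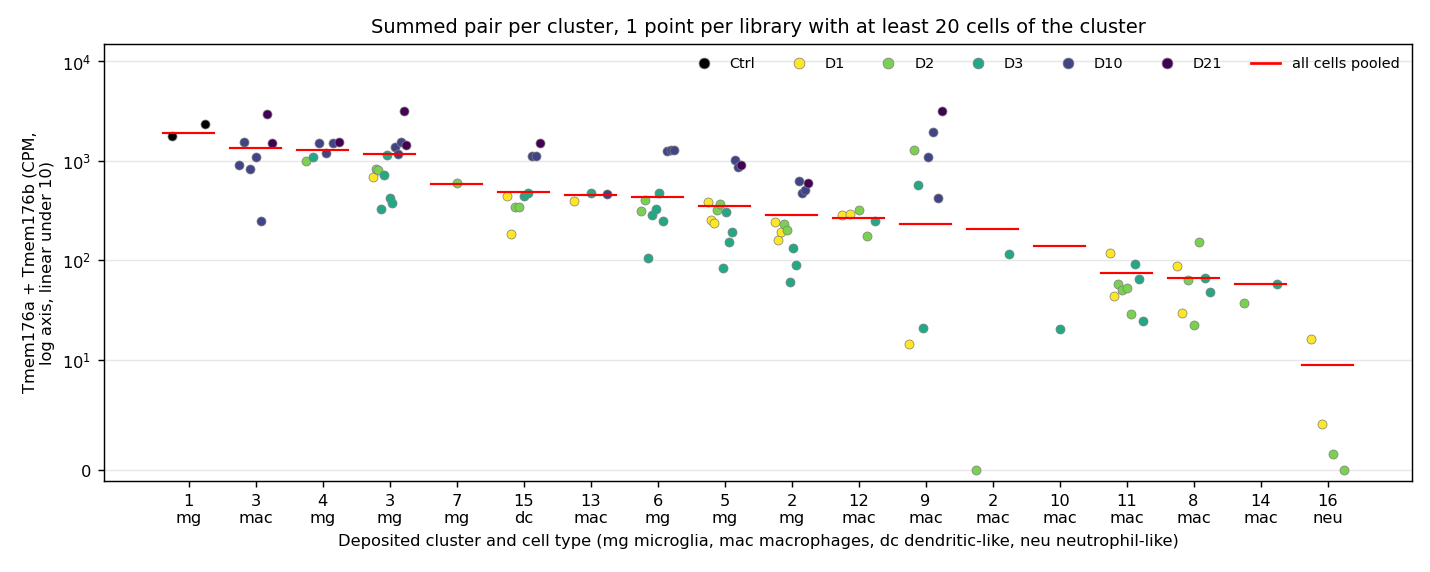
Summed CPM of the pair in each deposited cluster and cell type, on an axis that is logarithmic above 10 and linear below, 1 point per library with at least 20 cells of the cluster, coloured by time point, with a red bar for all cells pooled, those of the library with conflicting labels included. Microglial clusters 2, 5 and 6 show early sums below late ones, cluster 4 lies between 999 and 1553 CPM, and cluster 9 spreads from 14.3 to 3212 CPM between libraries.

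At a common depth the pair was found in more microglia and dendritic-like cells than macrophages, over libraries whose times differ between the types. With every cell thinned to 1000 UMIs, 42.9% of 13251 microglia, 27.5% of 2169 dendritic-like cells, 11.8% of 10423 macrophages and 0.496% of 1209 neutrophil-like cells had a UMI of either gene. Unthinned, the shares were 64.3%, 56.8%, 28.4% and 1.15%, at median depths of 3062, 11481, 8844 and 2100 UMIs. The other 3 types lay far above the neutrophil-like share at the common depth. Neutrophil-like sums of at least 20 cells came from D1 and D2 libraries alone. The part of free RNA in any of these shares was not tested. Thinning left out 30, 15, 51 and 10 cells of the 4 types. The shares pool the cells of all libraries whose labels do not conflict.

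Tmem176a was found more often in cells that also held Tmem176b. Among thinned microglia, a median of 26.3% of cells with a Tmem176b UMI also had Tmem176a, against 12.4% of cells without, and the former was higher in 15 of 15 libraries. The shares were 40.5% against 8.04% in macrophages (11 of 12 libraries) and 44.6% against 7.52% in dendritic-like cells (3 of 3). Cells of 1 library share its time point and sort, and a mix of high and low cells gives such shares as well.

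Within macrophages the pair was compared between cells with and without a UMI of H2-Ab1, the MHC class II beta chain that antigen-presenting cells carry. The pair was higher in cells with H2-Ab1 in 12 of 15 libraries, with a median log2 ratio of 1.00 (-1.03 to 2.96). In D1_infiltrating 1 it stood at 302 against 125 CPM, in D3_infiltrating 1 at 264 against 102 CPM and in D2_resident 1 at 708 against 91.1 CPM. The exceptions were D1_mixed 3, D10_infiltrating 2 and D21_mixed 1. Thinned to 1000 UMIs the order held in 10 of 11 libraries with a median of 1.33. The dendritic cell genes Flt3 and Cd209a, summed, were higher in the cells with H2-Ab1 in 11 of the 15 libraries, lower in 3 (D1_mixed 3, D3_resident 2 and D10_mixed 1) and at 0 on both sides in D21_mixed 1. They stood at 64.8 against 7.45 CPM in D1_infiltrating 1, at 90.8 against 6.98 CPM in D10_infiltrating 1 and at 8.48 against 42.3 CPM in D10_mixed 1. The part of dendritic cells in the ratio was not tested.

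Microglia showed little of this. The pair was higher in cells with H2-Ab1 in 10 of 16 libraries, with a median log2 ratio of 0.09, and of 0.14 after thinning. In the controls it was 1689 against 1783 CPM and 2341 against 2363 CPM, nearly equal on both sides.

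For Ly6c2, a marker of freshly recruited inflammatory monocytes, the direction changed between libraries. Over all 14 libraries the pair was higher with Ly6c2 in 6, with a median log2 ratio of -0.40. In the library with the most cells carrying Ly6c2, D1_infiltrating 1 (808 against 461 cells), it was nearly even at 175 against 163 CPM, and 154 against 210 CPM when thinned. In other early infiltrating and mixed libraries it was 106 against 57.1 CPM in D1_infiltrating 2, 205 against 91.0 CPM in D2_infiltrating 1 and 78.7 against 30.7 CPM in D2_mixed 2, higher in the cells with Ly6c2. D3_infiltrating 1 was likewise nearly even at 136 against 147 CPM. From D10, and in the 3 resident libraries of D2 and D3, the pair was lower in the cells with Ly6c2. It was 660 against 1053 CPM in D10_infiltrating 1, 243 against 897 CPM in D10_mixed 1, 256 against 1147 CPM in D10_mixed 2 and 191 against 2863 CPM in D21_infiltrating 1. In D21_infiltrating 1 the cells with Ly6c2 also had 23425 UMIs at the median, against 3290 in the others. The medians were 17443 against 2123 in D10_mixed 1 (15 cells with Ly6c2) and 17676 against 2534 in D10_mixed 2 (23 cells). When thinned, D10_infiltrating 1 was nearly even at 1083 against 1232 CPM. D10_mixed 2 stayed lower with Ly6c2 at 71.4 against 1037 CPM, and D21_infiltrating 1 at 300 against 2633 CPM. Thinned, the pair was higher with Ly6c2 in 4 of 11 libraries, with a median of -0.19.

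Among dendritic-like cells the highest level was in those with a UMI of Ccr7 or Fscn1, genes of mature, migratory dendritic cells. In D1_infiltrating 1 the pair stood at 1851 CPM in 20 such cells and 534 CPM in 99 cells with Cd209a, a gene of monocyte-derived and type 2 dendritic cells. In D3_infiltrating 1 it was 1985 CPM in 85 cells against 601 CPM in 277 cells. The log2 ratios were 1.79 and 1.72, and their median was 2.06 after thinning. Cells with Xcr1 or Clec9a, genes of type 1 dendritic cells, stood below those with Cd209a, at 304 against 549 CPM (11 cells) and 415 against 594 CPM (23 cells). Only these 2 libraries had enough cells for either comparison.

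**Figure D4:**
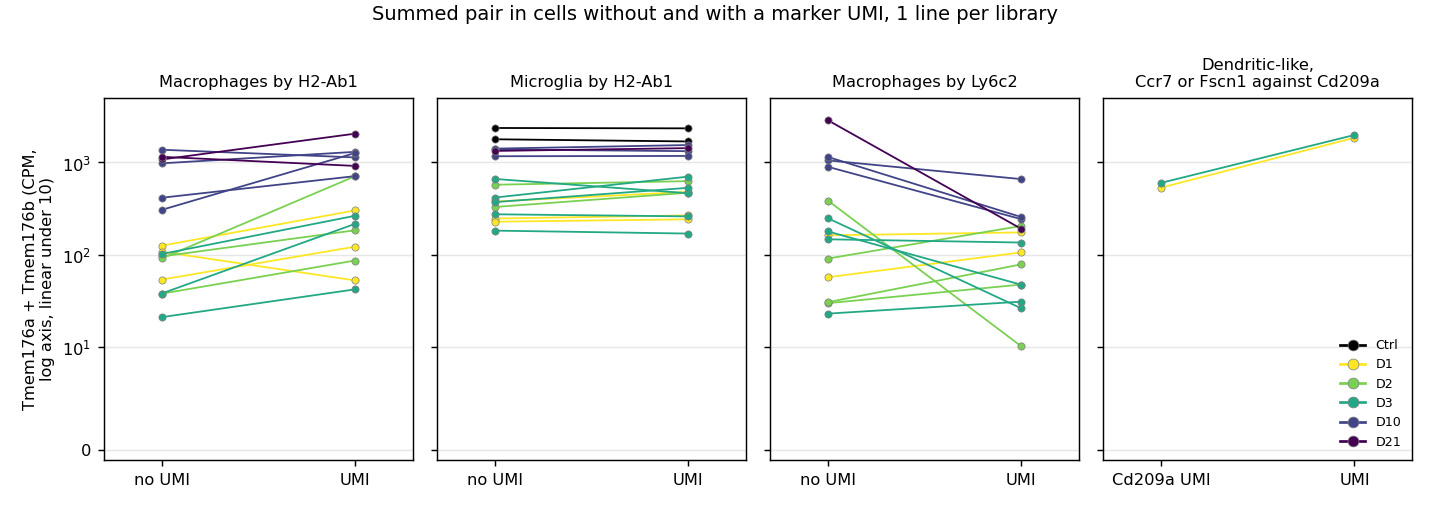
Summed CPM of the pair, on an axis that is logarithmic above 10 and linear below, in cells without and with a marker UMI, or with Cd209a and with Ccr7 or Fscn1, 1 line per library with at least 10 cells on each side, coloured by time point. The lines rise in 12 of 15 libraries for H2-Ab1 in macrophages, run nearly flat in microglia, go both ways for Ly6c2 and rise in both dendritic-like libraries.

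The genes whose levels followed the pair most closely were looked for by Pearson's r of log2(CPM + 5), among genes with a mean of at least 20 CPM. Across the 16 deposited clusters, Ppfia4 (0.93), Fcgrt (0.91), Hpgd (0.90) and Papss1 (0.88) were among the closest of 5923 genes. Fcgrt encodes the neonatal Fc receptor and Hpgd the enzyme that inactivates prostaglandins. Across the 17 microglia sums the closest of 5343 genes were Slc1a3 (0.93), which encodes a glutamate transporter, Cd300a (0.93), an inhibitory receptor, Plxdc1 (0.92), Clec4a3 (0.91), a C-type lectin, and Impact (0.90). Across the 15 macrophage sums the closest of 5318 genes were Ly86 (0.96), which encodes the partner of a Toll-like receptor relative, Rps27 (0.94), Lmo2 (0.93), Arl5c (0.92) and Rps28 (0.91), of which Rps27 and Rps28 encode ribosomal proteins. Tmem176a and Tmem176b followed each other at 0.99, 0.98 and 0.99 in the 3 settings, above any other gene named here. Sums of 1 library share its depth, time point and pool, and the clusters share libraries.

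Whether the sort mattered was tested with time point and sex in the model. In microglia, resident sums (n = 5) differed from mixed sums (n = 12) by 0.32 (SE 0.26) for Tmem176a and 0.14 (SE 0.25) for Tmem176b on the log2 scale, and neither passed (edgeR quasi-likelihood test, Benjamini-Hochberg adjusted p = 1 for both). Of the 10801 genes tested, 16 passed an adjusted p of 0.05 (0.148%), 15 of them higher (0.139%) and 1 lower (0.00926%). Leaving out 1 library at a time gave 0.02 to 0.52 for Tmem176a, lowest without D2_resident 1 and highest without D3_resident 2, and -0.063 (without D2_resident 1) to 0.31 (without D3_mixed 3) for Tmem176b. No sort difference of the pair was thus detected in microglia, and few other genes differed.

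In macrophages, infiltrating sums (n = 7) stood above mixed sums (n = 8) by 0.92 (SE 0.24) for Tmem176a and 0.99 (SE 0.31) for Tmem176b. Over all 8577 genes the edgeR adjusted p was 0.239 and 0.317, so neither gene passed, and 1 gene did (0.0117%). With DESeq2, which called 104 genes, the adjusted p was 0.0436 for Tmem176a and 0.0988 for Tmem176b, so the call for Tmem176a depends on the tool. The difference was positive without any 1 library, from 0.78 to 1.31 for Tmem176a and from 0.82 to 1.35 for Tmem176b, with edgeR adjusted p from 0.110 to 0.682 and from 0.130 to 0.830. Without cluster 3 it was 1.28 and 1.38, and with the sequencing pool as a term 1.3 and 1.66, none passing. Microglia markers in these sums differed between the sorts, in a direction that changed with time: 304 to 410 CPM in infiltrating against 649 to 1250 CPM in mixed libraries at D1 and D2, 3163 and 2984 CPM against 978 and 857 CPM at D10, and 2088 CPM against 4038 CPM at D21. Dendritic cell markers were 745 and 457 CPM in infiltrating against 136 and 144 CPM in mixed libraries at D1, 785 against 74.1 and 338 CPM at D2, 1416 against 84.9 CPM at D3 and 744 against 269 CPM at D21, and overlapped at D10 (261 and 1243 against 417 and 363 CPM). At D10 monocyte markers were 759.7 and 1683 against 6025 and 5840 CPM, and macrophage markers 118201 and 76965 against 28274 and 28719 CPM. At D21 both ran the other way, with 2975 against 80.6 CPM and 42839 against 102233 CPM. The part of these markers in the sort difference was not tested. Strain and sort cannot be told apart here.

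In dendritic-like cells, infiltrating sums (n = 7) differed from mixed sums (n = 2) by -0.38 (SE 0.46) and -0.72 (SE 0.45), with edgeR adjusted p of 0.748 and 0.521 for Tmem176a and Tmem176b. Of 7114 genes 1 passed (0.0141%). The fit has 2 residual degrees of freedom, so its precision is low.

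Sex was tested with time point in the model. In microglia, female sums (n = 5) differed from male sums (n = 12) by -0.12 (SE 0.28) for Tmem176a and -0.07 (SE 0.26) for Tmem176b (edgeR adjusted p = 1 for both). No gene passed (0%), with 101 of 10801 genes at an unadjusted p under 0.05, and DESeq2 also called 0. The sign is not settled, as it turned to 0.46 and 0.47 in the mixed libraries alone. In macrophages, female sums (n = 5) stood above male sums (n = 10) by 0.81 (SE 0.36) and 0.83 (SE 0.42), with edgeR adjusted p of 1.00 for both genes. Again no gene passed (0%), with 169 of 8577 genes at an unadjusted p under 0.05, and 0 by DESeq2. In the mixed libraries alone the macrophage differences turned to -0.38 and -0.58. No sex difference of the pair was thus detected in either type.

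**Figure D5:**
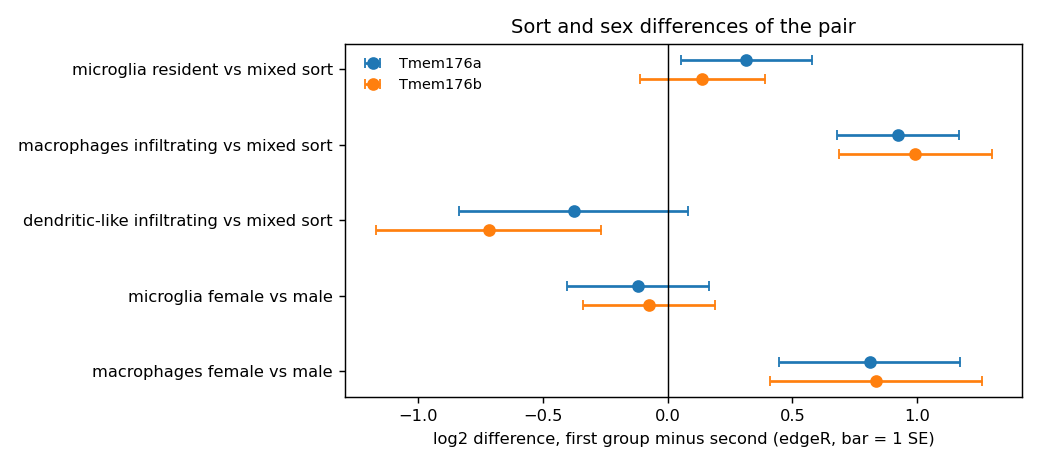
Log2 difference of Tmem176a and Tmem176b (points, with bars of 1 SE) for the 5 tested comparisons of sort and sex. The macrophage sort difference, 0.92 and 0.99, lies farthest from 0 relative to its error, and none of the 10 values passed an adjusted p of 0.05 in edgeR.

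The relatives of the pair, inflammasome genes and chromosomal neighbours were read in the same fits over time. Of 18 MS4A genes 6 were tested in microglia. At D1 against Ctrl 4 of the 6 rose and none fell, where 46.6% of all genes were called, 23.9% higher and 22.7% lower. Their median log2 difference was 2.79, or 2.49 with Ms4a4a, which had 0 counts in the controls, at its lower bound, against -0.01 over all genes. Ms4a6d rose by 2.93 (SE 0.37, edgeR adjusted p = 2.0e-05), from 183 and 232 CPM in the controls to 611 to 1116 CPM at D1. Ms4a6c rose by 2.66 (SE 0.56, adjusted p = 0.00100), from 69.5 and 176 CPM to 283 to 648 CPM. Both of them were high at the time at which the pair was low.

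Ms4a7, a macrophage gene, was at 0 and 0.539 CPM in the controls, the latter 1 count, and its mean level was 3.47 CPM at D1, 26.3 CPM at D3 and 87.3 CPM at D10. It was called higher at each of these times, though not in the mixed libraries alone (adjusted p = 0.295, 0.102 and 0.150), and no other of the 6 was called at D10, where 10.3% of all genes were called, 8.06% higher and 2.22% lower. At D1 its call and that of Ms4a4a were lost without Ctrl_mixed 1 (adjusted p = 0.143 and 0.142). The highest edgeR adjusted p of Ms4a4a with a library left out was 0.178, so another omission ended its call too. At D3, where 37.6% of all genes were called, 20.1% higher and 17.6% lower, Ms4a7, Ms4a6c and Ms4a6d were called higher. In macrophages at D10 against D1, 10 were tested, and Ms4a6d alone was called, lower by -1.97 (SE 0.31, adjusted p = 0.00224), from 662 to 1092 CPM at D1 to 169 to 324 CPM at D10. Of all genes 14.4% were called in that comparison, 7.31% higher and 7.04% lower. Ms4a6d thus ran opposite to the pair in both cell types.

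Of 16 inflammasome genes 14 were tested in microglia. At D1 2 rose and 4 fell, with a median of -0.51, so 6 of 14 were called where 46.6% of all genes were (23.9% higher, 22.7% lower), a share near the background. Il1rn, which encodes the interleukin-1 receptor antagonist, went from 0.715 and 1.08 CPM in the controls to 40.9 to 124 CPM at D1, a log2 difference of 7.07 (SE 0.91, edgeR adjusted p = 2.3e-05). Txnip, which encodes a thioredoxin-binding protein that can bind NLRP3, fell by 1.89 (SE 0.46, adjusted p = 0.00308) at D1. Its levels were 417 and 454 CPM in the controls, 62.6 to 92.4 CPM at D1, 13.5 to 63.5 CPM at D3 and 99.7 to 111 CPM at D10. Txnip thus fell with the pair, and its D10 levels lay above those of D1 and D3 but below both controls.

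The sensor genes Nlrp1b and Nlrp1a fell by 3.43 (SE 0.69, adjusted p = 0.000752) and by 2.05 (SE 0.72, adjusted p = 0.0263) at D1, the latter not without Ctrl_mixed 1, D1_mixed 1, D1_mixed 3 or D10_resident 1. Of the other 2 called, Pycard, the adaptor, was higher and P2rx7, the ATP-gated channel upstream of NLRP3, was lower. Nlrp3 itself was tested and not called, at 41.5 and 69.1 CPM in the controls and 21.7 to 26.2 CPM at D1. At D3 2 rose and 3 fell, against 37.6% of all genes called. At D10, where 10.3% of all genes were called, 2 were called higher, Il1rn and Il1b, and 1 fell, Txnip with a log2 difference of -1.5 (SE 0.44, adjusted p = 0.0342), while the difference of Il1b was 1.71 (SE 0.53, adjusted p = 0.0480). Without Ctrl_mixed 1 the adjusted p at D10 was 0.138 for Il1rn, 0.401 for Il1b and 0.262 for Txnip, and without Ctrl_resident 1 it was 0.171 for Il1b and 0.132 for Txnip. Leaving out D10_mixed 1, D10_mixed 2 or D10_resident 1 also ended the call of Txnip (adjusted p = 0.110, 0.0766 and 0.137), and 12 of the 17 libraries, left out singly, ended that of Il1b. In macrophages 13 were tested at D10 against D1, where 14.4% of all genes were called and 7.04% were lower. Il1rn alone of the 13 was called, with a log2 difference of -5.78 (SE 0.93, edgeR adjusted p = 0.00234).

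Of the 14 neighbouring genes on chromosome 6, among them the Gimap block of lymphocyte GTPases, 7 were tested in microglia and none in macrophages, where they were too low. At D1, where 46.6% of all genes were called and 22.7% were lower, 3 fell and none rose, namely Gimap1, Gimap6 and Gimap9, by 1.69 (SE 0.41), 1.81 (SE 0.62) and 1.40 (SE 0.46). The same 3 fell at D10, with log2 differences of -2.42 (SE 0.39), -2.74 (SE 0.60) and -2.41 (SE 0.45). Gimap1 was at 28.1 and 40.4 CPM in the controls, 5.41 to 7.0 CPM at D1 and 4.09 to 4.44 CPM at D10, so it stayed low at the time at which the pair was back. At D10 2.22% of all genes were lower. At D3 5 of the 7 fell, against 17.6% of all genes. Without Ctrl_mixed 1 the calls of Gimap6 and Gimap9 were lost at D1 (adjusted p = 0.172 and 0.143), at D3 (0.0601 and 0.0884) and at D10 (0.199 and 0.088). In the mixed libraries alone, with 1 female control against male D1 libraries, the fitted D1 differences of Gimap1 and Gimap6 turned to 5.27 and 2.49 (edgeR adjusted p = 0.682 and 0.898), and that of Nlrp1a to 4.25 (adjusted p = 0.820). The D1 calls of Txnip (-2.66, edgeR adjusted p = 0.135), Nlrp1b (-5.43, 0.139), Gimap9 (-1.68, 0.580), Ms4a7 (4.66, 0.295) and Ms4a4a (2.33, 0.677) were also lost there. At D3 all 11 calls refitted in this way were lost there, among them Ms4a7 (7.6, adjusted p = 0.102), Il1rn (12.9, 0.111) and Txnip (-3.92, 0.0626). At D10 those of Ms4a7 (8.59, adjusted p = 0.150), Il1rn (12.9, 0.219), Gimap9 (-2.9, 0.564), Txnip (-2.31, 0.405), Gimap1, Gimap6 and Il1b were lost.

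With the sequencing pool as a term, 10 of the 11 D3 calls refitted this way were lost, and Ms4a7 alone of them kept its call (log2 difference 5.6, edgeR adjusted p = 0.0158). The largest adjusted p was that of Gimap9, whose difference went from -1.78 to -0.043 (adjusted p = 1). Il1rn stood at 2.53 (adjusted p = 0.741), Nlrp1b at -0.53 (0.922), Gimap6 at -0.35 (0.978), Repin1 at -0.47 (0.954), Zfp775 at -2.07 (0.573) and P2rx7 at 0.16 (0.953). Ms4a6c was at 1.45 (adjusted p = 0.364), Ms4a6d at 0.86 (0.551) and Txnip at -1.39 (0.251). No value with that term is given for Gimap1 and Pycard. The comparisons with Ctrl share the same 2 control libraries, so the D1, D3 and D10 values are not independent of one another.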

How the data were processed

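Myeloid cells of 25 mouse spinal cord libraries were profiled with a 10x Genomics 3′ droplet kit, per the labels' protocols. For each library the authors deposited a matrix of unnormalised UMI counts (genes by cells), with cluster, cell type, pool, sort and sex codes for each of 30958 cells and the percent of mitochondrial counts, which was not used. Cell Ranger 3.1.0 and the builds GRCm38 and mm10 are named in the submitters' processing notes. Cell filters and strand setting are not given in the sources used here. The cell sums equalled the deposited totals in all 30958 cells, and no cell was removed. Doublets were not called and free RNA was not subtracted. Rows of sex-linked and reporter genes were not analysed here.

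Counts were summed per cell type and library, with at least 20 cells (23 to 1500 in the microglia fits, 28 to 3019 in the macrophage fits). Sums were tested with edgeR 4.0.16 in R 4.3.3 (TMM, filterByExpr, quasi-likelihood test, 2-sided, Benjamini-Hochberg over all genes tested, threshold 0.05). Sort was tested with time point and sex as terms, sex and time each with the other as term. Labels set every group, although D2_infiltrating 1 is labelled female and carries the deposited male code. Scripts were tested on simulated data. Alternatives were DESeq2 1.42.0, median-of-ratios scaling, no filter on low counts, at least 50 cells, pool, sort or replicate number as a term, mixed libraries alone, sums without cluster 2, the library with conflicting labels added, and each library left out. Omitting cluster 3 and using the sex code were added after seeing the data. The pair, the gene lists and these choices were made with earlier results of these data known. Genes named as most like the pair are the 5 with the highest r, of which 1 across the clusters is not reported here, and genes named from lists are the called members with the 4 largest differences. Pycard, Nlrp3 and, at D1, P2rx7 were named after their values were seen. Intervals and the limit for a count of 0 (3 counts) cover counting error only.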

Additional observations from a re-analysis of the deposited data

Results flagged for a closer look

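In the macrophages of the 8 mixed libraries, D21_mixed 1 stood apart as the highest for both genes. Tmem176a was 421 CPM there, with a gap to the next library of 0.564 of the group's range, and Tmem176b was 651 CPM, with a gap of 0.529, against Dixon's critical value of 0.526. It is the only mixed library at D21, and the next highest are those of D10. These libraries span D1 to D21, so the position of the D21 library restates the time course by which the pair was chosen and is a description, not a test. The summed microglia markers of this sum were 4038 CPM, the highest of the macrophage sums, and their part in the value was not tested.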

How the results depend on the processing

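The direction of the pair's changes with time in microglia (D1 and D3 against Ctrl) and in macrophages (D10 against D1) held in all alternatives run; their size did not. Mixed libraries alone gave -1.41 and -1.45 at D1, -0.84 and -1.19 at D3 and 0.62 and 0.48 at D10 for Tmem176a and Tmem176b in microglia, and 2.65 for Tmem176b in macrophages. The pool term gave -0.20 and -0.50 at D3. Levels moved to 1527 CPM (controls, TMM scaling) and, in mixed libraries alone, to 499 CPM (late macrophages) and 47.9 CPM in place of 91.2 (early macrophages). Thinning moved the Ccr7 or Fscn1 ratio to 2.06, and 700 UMIs per cell gave detection of 35.2%, 9.45% and 23.4% in microglia, macrophages and dendritic-like cells. DESeq2 gave Tmem176a 0.92 for the macrophage sort (adjusted p = 0.0436). Sex differences turned in microglia to 0.46 and 0.47 (mixed alone) and 0.064 (Tmem176b, pool term), and in macrophages to -0.38 and -0.58 (mixed alone). The causes were not tested.

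Counts of called genes moved most. For the microglia sort (16) they were 59 with DESeq2, 73 without a filter, 2 with at least 50 cells, 5 without cluster 2 and 1 with the replicate block. For the macrophage sort (1) they were 104 with DESeq2, 21 without a filter, 0 with the pool term or the replicate block, 12 with the conflicting library, 2 without cluster 3 and 4 with the sex code. For the dendritic-like sort (1) they were 22, 34, 16 (replicate block) and 6 (conflicting library). Macrophage sex gave 21 in mixed libraries alone. Microglia at D1 (5034) gave 1206 in mixed alone, at D3 (4064) 255 with the pool term and 628 in mixed alone, and at D10 (1111) 2404 with the pool term, 740 with the replicate block and 71 in mixed alone. Macrophages at D10 against D1 (1231) gave 646 with the replicate block. Among list genes, mixed libraries alone turned Nlrp1a (4.25), Gimap6 (2.49) and Gimap1 (5.27) at D1, Gimap6 (2.18), Zfp775 (4.84) and Repin1 (4.18) at D3, and Gimap6 (1.60), Gimap1 (4.49) and Il1b (-0.030) at D10. The pool term turned P2rx7 (0.16) at D3.

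Leaving out 1 library at a time gave 1 to 34 genes for the microglia sort (1 without either control, 34 without D10_resident 1), with 0.02 to 0.52 for Tmem176a and -0.063 (without D2_resident 1) to 0.31 for Tmem176b. It gave 1 to 14 genes for the macrophage sort (14 without D1_infiltrating 1) and 1 to 177 for the dendritic-like sort (177 without D1_infiltrating 2). Microglia sex gave -0.27 to 0.085 and -0.16 to 0.048, above 0 for Tmem176a without D2_mixed 1 or D2_resident 1 and for Tmem176b without D2_resident 1 or D3_mixed 3. Counts ran from 1825 (without Ctrl_mixed 1) to 4420 at D3, from 254 (without Ctrl_mixed 1) to 1316 at D10 and from 376 (without D1_infiltrating 2) to 1635 in macrophages, where the pair's differences were 2.33 to 3.04 and 2.69 to 3.54, lowest without D10_infiltrating 2.

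Same-numbered replicates did not deviate together (correlations -0.19 to 0.11 over 7 pairs), so the numbers were not taken as pairing the samples, and with the replicate block the sort differences were 0.63 and 0.95 in macrophages and 1.45 and 0.84 in microglia (edgeR adjusted p = 0.613 and 0.778). The pool term could not be fitted for the microglia and dendritic-like sorts, microglia at D1 and macrophages at D10 against D1, nor at least 50 cells for the dendritic-like sort. The thinned Xcr1 or Clec9a ratio had too few cells, and the sex code touched no microglia sum. Depth limits the neutrophil-like sums, where a few UMIs set the level.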

Other observations

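The library whose labels contradict each other, at D3, held macrophages with the pair at 135 CPM (62.8 CPM of Tmem176a and 72.4 CPM of Tmem176b), dendritic-like cells at 512 CPM (246 and 265 CPM) and 897 neutrophil-like cells at 15.3 CPM. Sums too small for the comparisons gave, among others, 350.2 CPM of Tmem176b against 47.0 CPM of Tmem176a in the 19 microglia of D3_infiltrating 1, and 656 against 531 CPM in the 10 microglia of D10_infiltrating 1.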
